A study of Mus musculus with 6 samples.

Results

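The arrays examined here set liver RNA of wild-type (WT) mice against liver RNA of mice lacking the constitutive androstane receptor (CAR-KO), to find genes whose level in promoted liver depends on that receptor. Both genotypes had received diethylnitrosamine (DEN), a carcinogen that starts liver tumours, followed by phenobarbital (PB), a drug that promotes them and was supplied in the drinking water. All mice were on the C3H/HeNCrlBR(C3He) background and 39 weeks old, and the tissue was liver. The comparison comprised 2 of the 6 arrays of the series, with WT RNA in the Cy3 channel and CAR-KO RNA in the Cy5 channel on array 1 and the dyes exchanged on array 2. The members are all 20743 probes tested of 20868 on the array, and 9646 genes were represented by 1 probe each. The other 4 arrays entered the fit as a pair of CAR-KO liver with PB against CAR-KO liver given DEN alone and a pair of WT liver tumour against CAR-KO liver with PB.

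The labels do not say how many animals gave each RNA, whether RNA was pooled, which sex was used, which part of Nr1i3 the CAR-KO allele lacks, or whether the extracts on array 1 and array 2 were separate. The p-values therefore cover only array-to-array spread, which may be technical. Ratios are log2 of WT over CAR-KO, so a positive value means more RNA in WT liver. The SE is the standard error from limma, a linear model with a variance moderated across probes, and the adjusted p is Benjamini-Hochberg over all probes tested. In whole liver, fewer cells of a type and less RNA per cell cannot be told apart.

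CAR, encoded by Nr1i3, is a nuclear receptor of hepatocytes. In mouse liver PB leads to its movement from the cytoplasm into the nucleus, where it pairs with the retinoid X receptor and binds response elements built from repeats of a hexamer core motif. The textbook targets are drug-metabolising enzymes, above all cytochromes P450 of the CYP2B and CYP2C subfamilies, and liver tumour promotion by PB in mice is known to require the receptor.

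On these arrays the median signals of the channels ran from 157 to 228 intensity units over a local background of 53 to 60, and between 89.3% and 95.0% of spots in a channel were well above background. The 8 hepatocyte markers measured had ratios of -0.38 to -0.02, none called, and their summed signal was 103670 in WT and 109930 in CAR-KO RNA on array 1 and 115770 and 136750 on array 2. The list medians were -0.02 on array 1 and -0.28 on array 2. The 2 arrays were uncorrelated over the probes measured on both (r = 0.029 across 20648 probes, which are not independent). They correlated at r = 0.217 once the dye effect fitted to each probe was removed. The median ratio was -0.02.

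Of the 20743 probes, 19 were higher in WT liver and 2 were lower at an adjusted p under 0.05, which is 0.0916% and 0.00964% of those tested, and 471 had an unadjusted p under 0.05. The calls span 15 named genes that were higher, 2 that were lower, and 4 probes without a gene symbol. Over the 9646 genes tested, 4475 ratios were positive and 5171 negative, and 25 genes were at least 2-fold higher on both arrays. By size alone, 40 probes were at least 2-fold higher and 7 at least 2-fold lower on both arrays, which is 0.194% and 0.0339% of the 20648 probes measured on both. In a fit on the 4 liver arrays, which omits the tumour pair with its array read by another version of the scanner software, 76 probes were higher and 18 lower, including all 21 of the calls above. Without array 1 of this comparison 5 probes were higher, without array 2 there were 4, and without either array of the CAR-KO pair 8, with none lower in each case. With the scanner software's own processed signals no probe passed. Unless another fit is named, called refers to the fit on all 6 arrays, and for many uncalled genes the adjusted p of the fit on the 4 liver arrays is given beside it. Without that value in their own sentences, Lect2, Anxa2, Myh2, Cyp26a1, Cyp4a14, Tubb6, Lpl, Mylpf, Scd2, Aox1, Cyp7b1, Fmo5 and Aldh1a1 also passed in the fit on the 4 liver arrays, at adjusted p-values from 0.000458 for Lect2 to 0.0497 for Aldh1a1. So did the probes without a symbol described below as GT9.3, amino levulinate synthase, cytochrome P450 4a10, retinol dehydrogenase type 6 and myosin heavy chain, from 6.5164e-05 for GT9.3 to 0.02 for the synthase.

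**Figure D1:**
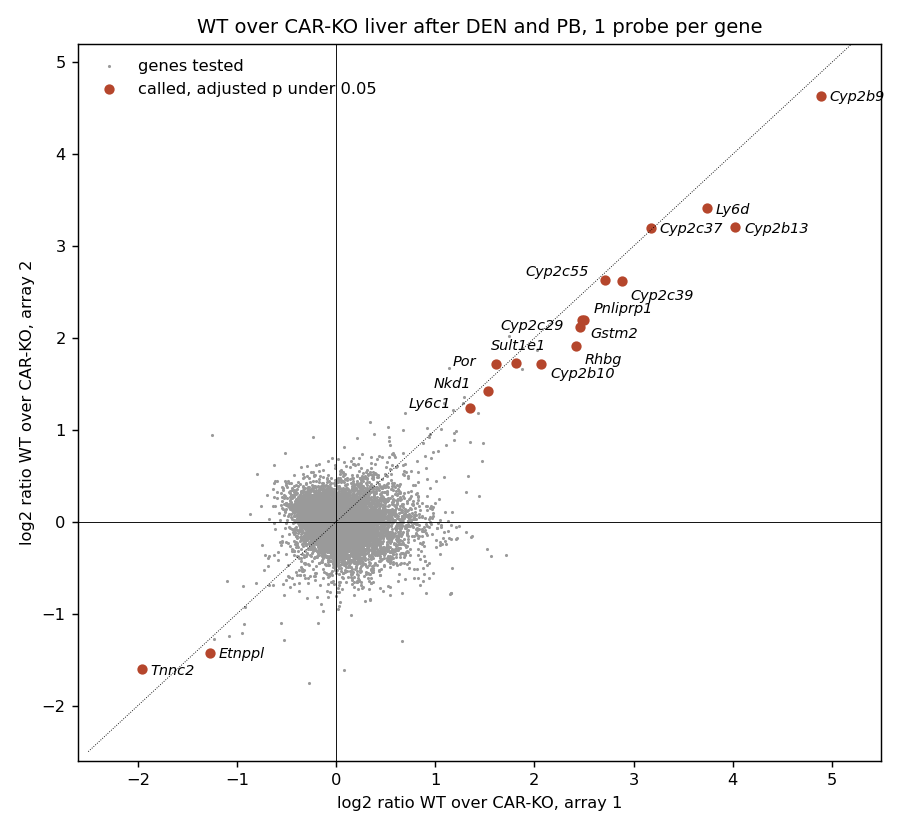
Log2 WT/CAR-KO liver ratio on array 1 (x axis) and array 2 (y axis), with 1 grey point per gene tested and the 17 called genes in red with their symbols. The dotted line marks equal ratios. The called genes lie along it, from Cyp2b9 at 4.89 and 4.64 to Tnnc2 at -1.96 and -1.61, away from the round cloud of the other genes.

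The CYP2B enzymes, which oxidise drugs and steroids and are the reference targets of CAR, gave the widest gap between the genotypes. The Cyp2b9 signal was 4343 and 4210 in WT RNA on arrays 1 and 2 and 147 and 169 in CAR-KO RNA. Its ratios of 4.89 and 4.64 averaged 4.76 (SE 0.20, 27.1-fold, n = 2 arrays, limma adjusted p = 0.000382). The Cyp2b13 signal was 1760 and 1624 in WT against 108 and 176 in CAR-KO RNA, a mean ratio of 3.61 (SE 0.18, limma adjusted p = 0.000382). All WT signals of both genes lay far above all CAR-KO signals. Cyp2b10, the form most often used as the marker of CAR activity, read 1059 and 1137 in WT and 253 and 345 in CAR-KO RNA. Its ratio was 1.89 (SE 0.16, 3.72-fold, limma adjusted p = 0.00746). A probe described in the files as a phenobarbital-inducible cytochrome P-450b gene, partial exon, with no symbol, had a ratio of 1.83 (2.03 and 1.63 on the 2 arrays, limma adjusted p = 0.0209). Cyp2b19, a form expressed mainly in skin, was measured at 469 and 694 in WT against 529 and 615 in CAR-KO RNA, a ratio of 0.00.

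The windows of 250 bases before the start of 3 CYP2B genes are shown because these genes lie side by side and moved together. They are from RefSeq on GRCm38.p6, 5′ to 3′, and the capitals mark the nuclear receptor core motif AGGTCA, searched on both strands.
Cyp2b9 (chr7:26173159-26173408, forward strand): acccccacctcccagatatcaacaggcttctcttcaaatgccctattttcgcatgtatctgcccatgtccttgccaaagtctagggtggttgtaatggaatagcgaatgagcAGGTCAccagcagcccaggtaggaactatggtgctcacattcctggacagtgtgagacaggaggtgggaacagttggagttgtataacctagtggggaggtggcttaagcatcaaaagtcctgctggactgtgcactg
Cyp2b13 (chr7:26061245-26061494, forward strand): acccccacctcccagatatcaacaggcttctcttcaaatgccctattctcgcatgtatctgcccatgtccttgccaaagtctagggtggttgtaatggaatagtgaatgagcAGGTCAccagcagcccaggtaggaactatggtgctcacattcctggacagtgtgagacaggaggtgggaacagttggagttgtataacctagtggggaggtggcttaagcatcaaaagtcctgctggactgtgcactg
Cyp2b10 (chr7:25897408-25897657, forward strand): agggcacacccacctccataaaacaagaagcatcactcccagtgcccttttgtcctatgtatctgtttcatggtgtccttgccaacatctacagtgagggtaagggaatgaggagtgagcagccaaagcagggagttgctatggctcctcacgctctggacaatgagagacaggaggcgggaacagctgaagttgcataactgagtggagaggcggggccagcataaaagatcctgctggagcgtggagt
The Cyp2b9 and Cyp2b13 windows share 248 of 250 bases, and each holds AGGTCA from base 138 to base 133 before the start. The Cyp2b10 window matches either of them at 71.4% of aligned positions and has no AGGTCA in these letters. That hexamer occurs in 14.0% of 32851 promoter windows of this length, so a match is a description only. The phenobarbital-responsive enhancer known for Cyp2b10 lies farther upstream than this window. Where genes are this alike, a probe can bind transcripts of both. The probes' own letters were not analysed here, so the ratios of Cyp2b9 and Cyp2b13 are uncertain as separate measurements.

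The CYP2C subfamily, enzymes that oxidise drugs, retinoids and fatty acids, contained 4 called genes, all higher in WT liver. Cyp2c37, an arachidonic acid hydroxylase, was at 10399 and 12522 in WT and 1154 and 1364 in CAR-KO RNA. Its ratios of 3.17 and 3.20 were nearly equal on the 2 arrays (mean 3.18, SE 0.15, 9.09-fold, limma adjusted p = 0.000382). Cyp2c39, a retinoic acid hydroxylase, read 7639 and 7388 against 1036 and 1205, a ratio of 2.75 (SE 0.19, limma adjusted p = 0.00323). Cyp2c55 read 974 and 1241 in WT against 149 and 200 in CAR-KO RNA, a ratio of 2.67 (SE 0.15, limma adjusted p = 0.0011). Cyp2c29, a major PB-responsive form of mouse liver, read 14891 and 15617 against 2708 and 3582, a ratio of 2.29 (SE 0.16, limma adjusted p = 0.00323). In each of these 4 genes both WT signals were above both CAR-KO signals.

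The opposite direction was seen for Cyp2c40, a female-biased form. It read 2526 and 1995 in WT against 4818 and 4318 in CAR-KO RNA. The ratio of -1.02 did not pass (SE 0.17, limma adjusted p = 0.173), while in the fit on the 4 liver arrays its adjusted p was 0.00388. Cyp2c38 had a ratio of 0.01 with signals of 66 to 91 in both RNAs, near the lowest on the arrays. In the reference gene table these genes form a single cluster in the order Cyp2c55, Cyp2c29, Cyp2c39, Cyp2c38, Cyp2c40 and Cyp2c37, with unmeasured members between some of them. Neighbouring genes of the cluster thus had ratios of 2.75, 0.01 and -1.02. The windows of 3 of them are given to show a strongly higher member with the core motif, one without it, and the member with the negative ratio.
Cyp2c29 (chr19:39286835-39287084, forward strand): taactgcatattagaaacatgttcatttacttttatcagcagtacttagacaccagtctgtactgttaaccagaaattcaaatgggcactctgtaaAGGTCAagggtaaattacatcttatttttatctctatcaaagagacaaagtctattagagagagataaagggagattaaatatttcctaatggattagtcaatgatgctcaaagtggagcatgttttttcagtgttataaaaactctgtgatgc
Cyp2c37 (chr19:39992174-39992423, forward strand): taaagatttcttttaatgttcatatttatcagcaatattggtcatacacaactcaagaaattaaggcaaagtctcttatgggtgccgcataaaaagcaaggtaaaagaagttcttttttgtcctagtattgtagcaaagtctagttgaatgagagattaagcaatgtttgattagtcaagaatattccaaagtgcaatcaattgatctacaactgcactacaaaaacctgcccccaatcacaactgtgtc
Cyp2c40 (chr19:39812815-39813064, reverse strand): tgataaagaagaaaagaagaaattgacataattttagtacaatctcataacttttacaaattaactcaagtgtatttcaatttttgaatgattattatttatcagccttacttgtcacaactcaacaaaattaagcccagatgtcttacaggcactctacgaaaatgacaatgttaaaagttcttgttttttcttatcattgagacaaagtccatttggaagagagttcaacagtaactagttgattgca
Only the Cyp2c29 window holds AGGTCA, from base 154 to base 149 before the start. The Cyp2c37 window matches it at 58.8% and the Cyp2c40 window at 52.0% of aligned positions. These promoters are far less alike than those of Cyp2b9 and Cyp2b13.

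Over the list of CYP2B and CYP2C genes, 7 of 10 measured members were called higher and none lower, with a median ratio of 2.48. Over all genes tested, 15 of 9646 were called higher and the median was -0.01. The list was drawn up with these results known and is a description. Summed over its members, the signal was 44130 in WT and 10967 in CAR-KO RNA on array 1 and 46515 and 12066 on array 2.

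**Figure D2:**
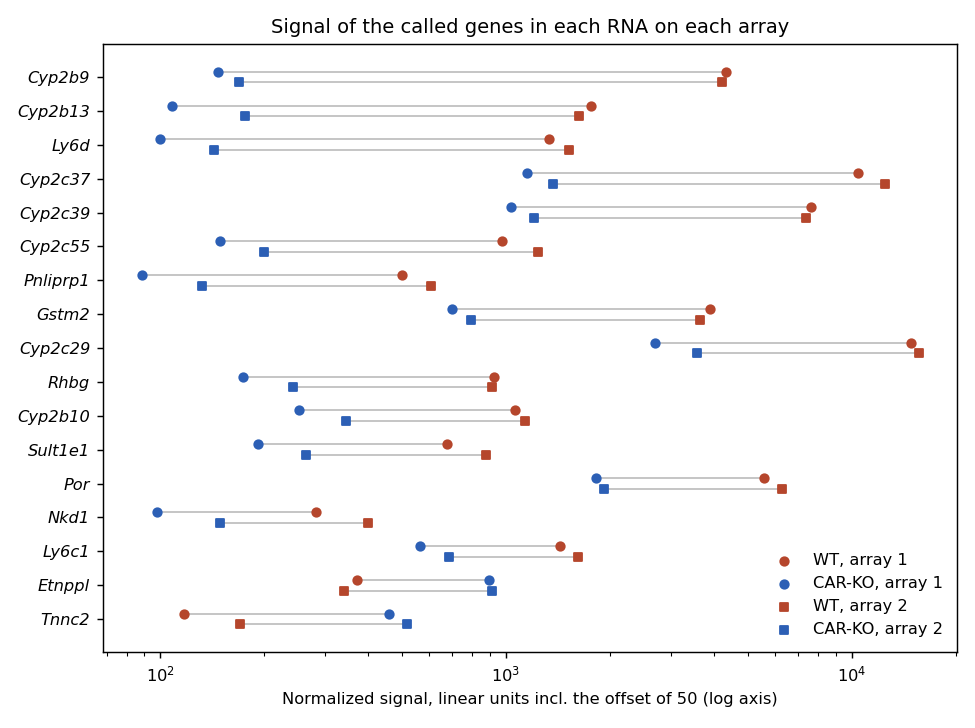
Normalized signal (log x axis, linear units including the offset of 50) of the 17 called genes in WT RNA (red) and CAR-KO RNA (blue), with circles for array 1 and squares for array 2. Red lies right of blue for the first 15 genes and left of it for Etnppl and Tnnc2, and no pair of colours overlaps within a gene.

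Other P450 families gave few wide ratios. Cyp2a4, a testosterone hydroxylase that neighbours the CYP2B genes, read 15538 and 16537 in WT against 4638 and 4075 in CAR-KO RNA. Its ratio of 1.88 (SE 0.32) did not pass (limma adjusted p = 0.184) but had an adjusted p of 1.8221e-05 in the fit on the 4 liver arrays. The ratios of Cyp2a4 on the 2 arrays here were 1.74 and 2.02, while the tumour pair gave 3.81 and 1.51. The 6 CYP2A and CYP3A genes all had positive ratios, none called, with a median of 0.33. Cyp3a11, the main drug-oxidising CYP3A enzyme of mouse liver and a textbook target of the pregnane X receptor, had ratios of 0.72 and 0.33 (mean 0.53, SE 0.21). Of the 32 remaining P450s none was called and the median was 0.00. At their upper end stood Cyp26a1, which degrades retinoic acid (1.49 and 0.86, mean 1.17, SE 0.17, limma adjusted p = 0.117), and Cyp1a2, which metabolises caffeine and aromatic amines (1.47 and 0.66, mean 1.06, SE 0.26). The lower end held Cyp4a14, a fatty acid omega-hydroxylase (-1.08 and -1.24, mean -1.16, SE 0.17, limma adjusted p = 0.12), and Cyp7b1, an oxysterol hydroxylase (-0.53 and -1.29, mean -0.91, SE 0.18).

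Por, the reductase that hands electrons to every microsomal P450, was called higher in WT liver. It read 5580 and 6302 in WT against 1825 and 1923 in CAR-KO RNA, with ratios of 1.61 and 1.71 (mean 1.66, SE 0.17, 3.17-fold, limma adjusted p = 0.022). The other 9 members of its list, in electron transfer and haem synthesis, were not called, and the list median was 0.14. Cyb5b, the outer mitochondrial cytochrome b5, was at 0.35 (SE 0.15). A probe described as amino levulinate synthase, the first enzyme of haem synthesis, had ratios of 1.29 and 1.08 (limma adjusted p = 0.595).

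Conjugating enzymes among the calls were the glutathione S-transferase Gstm2, a probe similar to glutathione S-transferase theta 1 and the sulfotransferase Sult1e1. Gstm2, which joins glutathione to electrophiles, read 3885 and 3644 in WT against 697 and 794 in CAR-KO RNA (ratio 2.34, SE 0.19, 5.06-fold, limma adjusted p = 0.0068). Gstm1, the most abundant of its class in mouse liver, read 56721 and 50156 against 13949 and 13719. The Gstm1 ratio of 1.95 (SE 0.30, limma adjusted p = 0.147) did not pass, but did in other fits, among them that on the 4 liver arrays at an adjusted p of 1.9118e-05. Its ratios on the 2 arrays here were 2.02 and 1.87, while the tumour pair gave 1.59 and 0.33. Probes without a symbol described as glutathione transferase GT9.3 and as similar to glutathione S-transferase theta 1 had ratios of 2.24 (limma adjusted p = 0.23) and 1.36 (limma adjusted p = 0.0487). The mu-class genes are close copies, so their probes may share transcripts. Of the named transferases of other classes none was called: Gsta1 was at 0.69 (SE 0.16), Gsta3 at 0.38 (SE 0.18), Gstt1 at 0.25 (SE 0.21) and Gstp1 at -0.13 (SE 0.28), and the median of the 16 transferases was 0.07.

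Sult1e1, the oestrogen sulfotransferase, read 677 and 878 in WT against 192 and 265 in CAR-KO RNA (ratio 1.77, SE 0.18, 3.42-fold, limma adjusted p = 0.0195). Sult1c2 had ratios of 1.21 and 0.99 (limma adjusted p = 0.126). Ugdh, which makes the glucuronic acid donor used by UDP-glucuronosyltransferases, had ratios of 1.06 and 1.01 (limma adjusted p = 0.159). Both passed in the fit on the 4 liver arrays, at adjusted p-values of 0.00294 and 0.00388. The transferases Ugt2b37, Ugt2b38 and Ugt2a3 were at 0.25, 0.18 and -0.13, and the median of the 16 members was 0.09.

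Among 21 esterases, epoxide hydrolases and monooxygenases none was called and the median was 0.07. Aox1, an aldehyde oxidase, had ratios of 0.98 and 0.76, and Fmo5, a flavin monooxygenase, 0.87 and 0.86. Ephx1, the microsomal epoxide hydrolase and a known PB-responsive gene, was uneven at 1.44 on array 1 and 0.28 on array 2. Aox3, another aldehyde oxidase, pointed the other way at -0.51 and -0.63. Of 24 aldehyde, alcohol and aldo-keto enzymes none was called either, and Aldh1a1, which makes retinoic acid, was the widest at 0.53 and 0.92 (mean 0.73, SE 0.16).

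The 22 drug and bile acid transporters had a median of 0.03 and no call. Abcc2, the canalicular conjugate exporter, was at 0.51 and 0.59, and Slco1b2, a bile acid and drug uptake carrier, at 0.52 and 0.42. Antioxidant genes of the NRF2 programme were positive in 14 of 16 members (4475 of 9646 over all genes) with a median of 0.24 and no call. Beside Ugdh the widest were Gpx4 at 0.56, Tkt at 0.54, Gpx2 at 0.45 and Txnrd1 at 0.41, while Mt1, a metallothionein, was at -0.40.

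**Figure D3:**
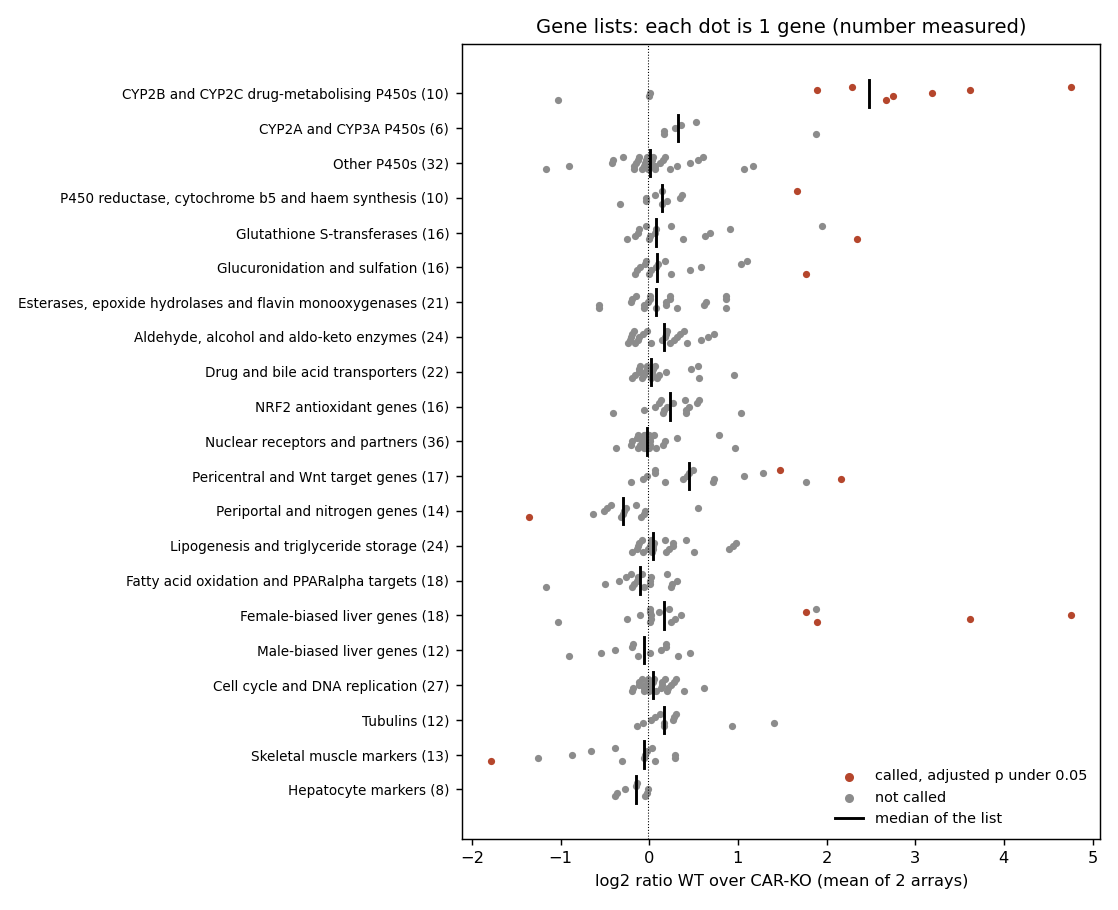
Log2 WT/CAR-KO ratio for the measured genes of 21 lists, 1 dot per gene, with called genes in red, the median of each list as a bar and the median of all genes as a dotted line. The CYP2B and CYP2C list stands at a median of 2.48, the pericentral list at 0.45, the CYP2A and CYP3A list at 0.33 and the periportal list at -0.29, and the other lists lie nearer to 0.

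Receptor genes gave no call. Nr1i3 read 214 and 246 in WT against 101 and 175 in CAR-KO RNA. Its ratios of 1.08 and 0.49 averaged 0.79 (SE 0.16, limma adjusted p = 0.412), and its adjusted p was 0.029 in the fit on the 4 liver arrays. Where the probe lies relative to the deleted part is not known here, so it does not check the genotype. Ahr, the dioxin receptor, read 188 and 222 against 99.9 and 109 (ratios 0.91 and 1.03, limma adjusted p = 0.16, and 0.00535 in the smaller fit). Rxra and Hnf4a, the CAR partner and a hepatocyte master regulator, were both at -0.02, and Ppara, the fatty acid receptor, was at -0.36 and -0.40. None of the 36 receptors and partners was called, with a median of -0.03. The 50 measured genes nearest to Nr1i3 in the reference table, 25 on each side, held no call. Of their ratios 23 were positive (4475 of 9646 over all genes), with a median of -0.01 and a range of -0.38 to 0.45.

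Genes of the hepatocytes around the central vein, many of them Wnt and beta-catenin targets, included 2 called members. Rhbg, an ammonium transporter, read 927 and 911 in WT against 173 and 242 in CAR-KO RNA (ratio 2.17, SE 0.17, 4.49-fold, limma adjusted p = 0.0058). Nkd1, a Wnt feedback inhibitor, read 283 and 399 against 97.9 and 149 (ratio 1.48, SE 0.16, 2.78-fold, limma adjusted p = 0.0228). Glul, glutamine synthetase and the classic marker of the innermost pericentral cells, read 2119 and 2694 against 577 and 852. The Glul ratio of 1.77 (SE 0.24) had a limma adjusted p of 0.0906, and 0.000198 in the fit on the 4 liver arrays. Lect2, a hepatokine that responds to beta-catenin, had ratios of 1.28 and 1.29 (limma adjusted p = 0.0684). The list was positive in 14 of 17 members, 4 of them at least 2-fold on both arrays. Of all 9646 genes tested, 4475 were positive, 25 were at least 2-fold higher on both arrays and 15 were called higher. The list had a median of 0.45 and 5 calls in the fit on the 4 liver arrays, where 76 of 20743 probes were higher. It was not uniform: Axin2, a general Wnt target, was at -0.10 and -0.04, Tcf7 at -0.24 and -0.17, Ctnnb1 at -0.03 and Cyp2e1, an ethanol-oxidising P450 of the same zone, at 0.22 and -0.09.

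Genes of the periportal zone and of nitrogen handling included 1 call, in the other direction. Over all 9646 genes tested, 2 were called lower. Etnppl, phosphoethanolamine phospholyase, was called lower in WT liver, at 371 and 340 in WT against 897 and 913 in CAR-KO RNA (ratio -1.35, SE 0.16, limma adjusted p = 0.0497). By the mean of the 2 arrays 13 of 14 members were negative, against 5171 of all 9646 genes tested, with a median of -0.29. On both arrays 9 of the 14 were negative, against 2145 of all genes. The list medians were -0.18 on array 1 and -0.35 on array 2. The 8 hepatocyte markers were all negative by their means too, so this sign is not particular to periportal genes. Ass1 and Arg1, urea cycle enzymes, had ratios of -0.18 and -1.10 and of -0.29 and -0.67, more negative on array 2 in both. The exception was Cdh1, E-cadherin, at 0.82 and 0.28. The call of Etnppl lay just under the threshold.

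**Figure D4:**
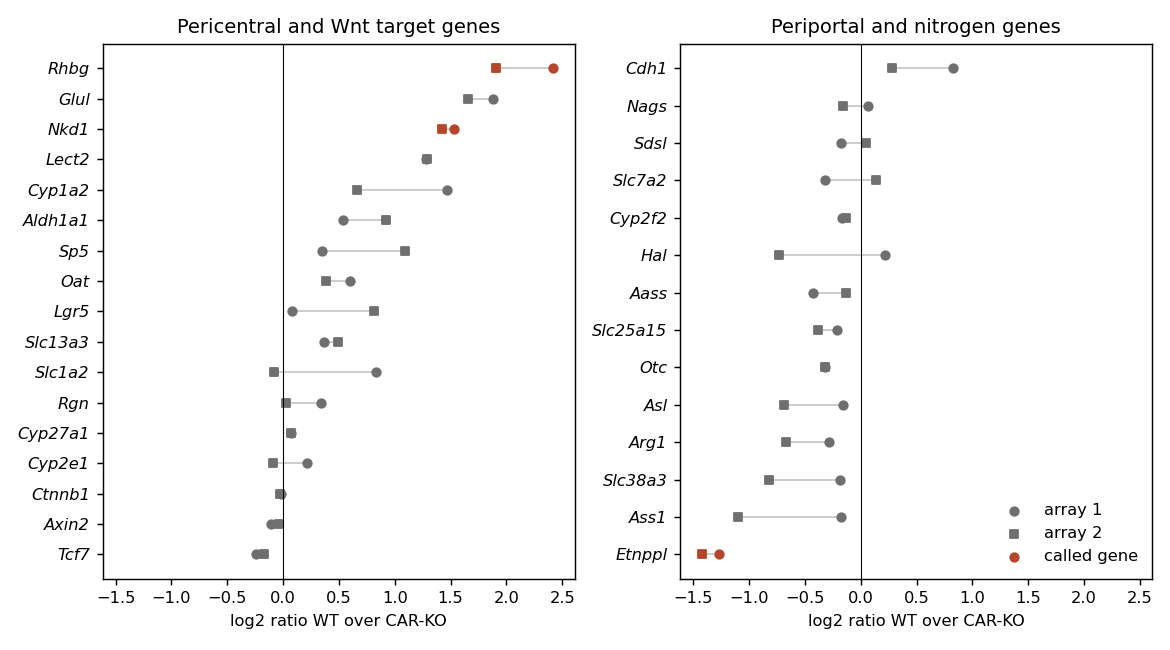
Log2 WT/CAR-KO ratio on array 1 (circles) and array 2 (squares) for the 17 pericentral and 14 periportal genes measured, with called genes in red. Rhbg, Glul, Nkd1 and Lect2 lie above 1.2 on both arrays, and 13 of the 14 periportal genes have a mean below 0.

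Surface and secreted proteins supplied further calls. Ly6d, a membrane-anchored lymphocyte antigen, read 1335 and 1524 in WT against 99.8 and 143 in CAR-KO RNA (ratio 3.58, SE 0.17, 11.9-fold, limma adjusted p = 0.000382), the third widest ratio of all genes tested. Ly6c1, of the same family, read 1438 and 1620 against 565 and 686 (ratio 1.29, SE 0.16, limma adjusted p = 0.0497). Beside them the 14 lymphocyte markers had a median of -0.03, no call, and summed signals of 3010 in WT and 3031 in CAR-KO RNA on array 1. Pnliprp1, a pancreatic lipase-related protein, read 501 and 606 against 88.5 and 132 (ratio 2.35, SE 0.15, 5.09-fold, limma adjusted p = 0.00218). The other 10 pancreatic acinar markers measured had ratios of -0.68 to 0.08 and no call. The tumour and fetal liver list held Ly6d and Ly6c1 as its only calls among 19 members, where 15 of all 9646 genes were called higher. Afp, H19 and Gpc3, established liver tumour or fetal markers, were at -0.06, -0.06 and 0.20, and the list median was 0.13.

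Tuba8, a divergent alpha-tubulin which the study examined further, read 155 and 196 in WT against 70.5 and 61.3 in CAR-KO RNA. The CAR-KO signal was well above background on 1 of 2 arrays. These signals include the added offset, and the CAR-KO values lie near the lowest on the arrays. Ratios of 1.14 and 1.67 averaged 1.41 (SE 0.20, limma adjusted p = 0.104). In the fit on the 4 liver arrays the gene passed at a limma adjusted p of 0.000269. Over 18 alternative settings, some of which repeat another fit, Tuba8 passed in 6. Its ratio ranged from 0.92 to 3.75 over these settings, so its size depends on the processing. Both WT signals were above both CAR-KO signals. Tubb6, a beta-tubulin, had ratios of 0.94 and 0.93, and the other 10 tubulins of the list lay between -0.14 and 0.30. Outside the list, a probe without a symbol, described as beta-tubulin gene M-beta-2, had a ratio of 1.02 (limma adjusted p = 0.147). In the fit on the 4 liver arrays that probe passed at a limma adjusted p of 0.0039.

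Growth genes gave no call. Of 27 cell cycle genes the ratios had a median of 0.04, and Ccnd1, cyclin D1, was the widest at 0.54 and 0.70 (mean 0.62, SE 0.28). Gadd45b, a stress gene reported to respond to CAR activators, had ratios of 0.72 and 0.50 (SE 0.41) on signals of 98.2 and 107 in WT against 59.5 and 75.5 in CAR-KO RNA. The 19 genes of the p53, Gadd45 and survival list had a median of 0.11, and the 18 immediate early genes one of 0.03, with Jun at 0.42 and Myc at 0.28.

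Metabolic lists had medians near 0. Lipogenic genes had a median of 0.04 and no call in 24 members, yet Thrsp, a regulator of fat synthesis, was at 1.11 and 0.84, Lpl, lipoprotein lipase, at 0.69 and 1.19, and Scd2, a desaturase, at 1.03 and 0.77. Cholesterol synthesis had a median of 0.02 over 17 genes, with Acat2 at -0.67 and -0.37. Fatty acid oxidation and PPARalpha targets had a median of -0.10 over 18 genes. Besides Cyp4a14 their lower end held Angptl4 at -0.75 and -0.26, and 2 probes described as cytochrome P450 4a10 without a symbol had ratios of -0.97 (limma adjusted p = 0.197) and -1.02 (limma adjusted p = 0.136). Genes of gluconeogenesis, glycolysis and amino acid catabolism had 8 of 20 positive ratios (4475 of 9646 over all genes), a median of -0.14 and no call. They ran from Pck1, the key gluconeogenic enzyme, at -0.54 to Igfbp1, an insulin-responsive binding protein, at 0.57, with Fbp1 at -0.49 and G6pc at -0.44. Bile acid synthesis had 10 of 15 negative ratios (5171 of 9646 over all genes) and a median of -0.08. Cyp8b1, which sets the share of cholic acid, was at -0.06 and -0.76.

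Several of the called P450s are female-biased in mouse liver. The female-biased list held 4 calls among 18 members, namely Cyp2b9, Cyp2b13, Cyp2b10 and Sult1e1. Over all 9646 genes tested, 15 were called higher. Cyp2b9, Cyp2b13 and Cyp2b10 are the CYP2B calls already described, so the 2 lists are not separate results. The median was 0.17 for the female-biased list, while the 12 male-biased genes had a median of -0.06 and no call. Cyp2c40 ran against the list, and Cyp3a41a and Cyp3a16, also female-biased, were at 0.36 and 0.29. Of the sex chromosome markers, Xist was at -0.18 and -0.12, Eif2s3y at -0.26 and 0.16 and Kdm5d at -0.07 and 0.03. In the growth hormone and IGF axis, which controls sex-biased liver genes, Igfbp2 was at -0.56 and -1.10, Igf1 at -0.69 and -0.48, and Socs2 at 0.50 and 0.25, with no call in 18 genes.

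Tnnc2, the calcium sensor of fast skeletal muscle, was the gene called most strongly lower. It read 118 and 171 in WT against 459 and 519 in CAR-KO RNA (ratio -1.78, SE 0.15, 3.44-fold, limma adjusted p = 0.00746). Other sarcomere genes had negative ratios too: Myh2, a fast myosin heavy chain, -1.23 and -1.28, Mylpf, a myosin light chain, -1.10 and -0.65, and Tnni2, fast troponin I, -0.63 and -0.69. Probes described as perinatal and as IIB myosin heavy chain stood at -1.90 and -1.36 (limma adjusted p = 0.115 and 0.298). A second probe of Myh2 gave -0.07 and a second probe of Mylpf -0.13. Of the 13 muscle markers 9 were negative (5171 of 9646 over all genes) and the median was -0.06. Ckm and Actn3, muscle creatine kinase and alpha-actinin, were both at 0.29. The summed muscle signal was 1613 in WT and 2324 in CAR-KO RNA on array 1 and 2042 and 2643 on array 2. Whether muscle RNA in the samples has a part in the Tnnc2 ratio was not tested.

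The remaining calls were probes without a symbol, described as GT12 protein (2.45 and 1.55, limma adjusted p = 0.00637) and as similar to TLH29 protein precursor (2.01 and 1.84, limma adjusted p = 0.0158). Just outside the threshold on the upper side was Anxa2, a calcium-dependent membrane-binding protein, at 1020 and 1220 in WT against 417 and 474 in CAR-KO RNA (ratio 1.33, SE 0.16, limma adjusted p = 0.0556). On the lower side it was a probe described as similar to retinol dehydrogenase type 6 (-1.45 and -1.46, limma adjusted p = 0.0532). Retsat, which reduces retinol, was at -0.95 and -1.21 (SE 0.32), and Hamp, the iron hormone hepcidin, at -0.94 and -0.70 (SE 0.17, limma adjusted p = 0.462, and 0.0284 in the fit on the 4 liver arrays).

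Inflammatory and stress programmes gave no call. Acute phase genes had a median of 0.16, with Orm2 at 0.94 and 0.37 beside Mug1 at -0.72 and -0.53. Interferon response genes were positive in 17 of 21 members (4475 of 9646 over all genes). Their median was 0.17 and their highest value 0.50 for Ifit1. Chemokines had a median of 0.01, clock genes one of -0.06 and endoplasmic reticulum stress genes one of 0.01, the last with Chac1, a glutathione-degrading enzyme, at -0.27 and -1.75. Markers of cholangiocytes, stellate cells, endothelium, macrophages, neutrophils, erythroid cells and adipocytes had list medians between -0.07 and 0.02 and no call. The single marker of these lists beyond 0.5 was Dcn, decorin of stellate cells and fibroblasts, at -0.38 and -0.75.

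The other 2 pairs also contain RNA labelled as CAR-KO liver with DEN and PB, and the labels do not say whether it is the same extract. Their values are therefore only set side by side. In CAR-KO liver, PB over no PB gave ratios of 0.28 for Cyp2b9, 0.01 for Cyp2b10, 0.08 for Cyp2c37, 0.52 for Por and -0.11 for Ly6d. For Cyp2c39 that pair was uneven at -0.01 and 1.03, and for Rhbg at -0.12 and 0.87. Tnnc2 was at 1.98 and 1.58 in that pair. WT tumour over CAR-KO liver gave 4.23 for Cyp2b9, 2.70 for Cyp2c37, 4.82 for Ly6d, 4.12 for Pnliprp1, 3.30 for Nkd1, 2.74 for Tuba8 and -2.37 for Etnppl.

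Tumour over WT liver was tested as the difference of the tumour and liver ratios to RNA labelled as CAR-KO liver with PB. It passed for none of the 17 called genes, with a smallest limma adjusted p of 0.137. Ahr and Tubb6, not called in liver, had the same limma adjusted p of 0.137. The number passing over all probes was not counted here, so the lack of a call is neither particular to these genes nor a finding of equal levels. Nkd1 had a difference of 1.82 (SE 0.22) and Pnliprp1 one of 1.77 (SE 0.22), each with a limma adjusted p of 0.137. For Cyp2b9 the difference was -0.53 (SE 0.28), for Cyp2c29 -0.15 (SE 0.23) and for Por 0.24 (SE 0.24). Glul and Tuba8, not called in liver, differed by 1.43 and 1.34 (limma adjusted p = 0.369 and 0.314).

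**Figure D5:**
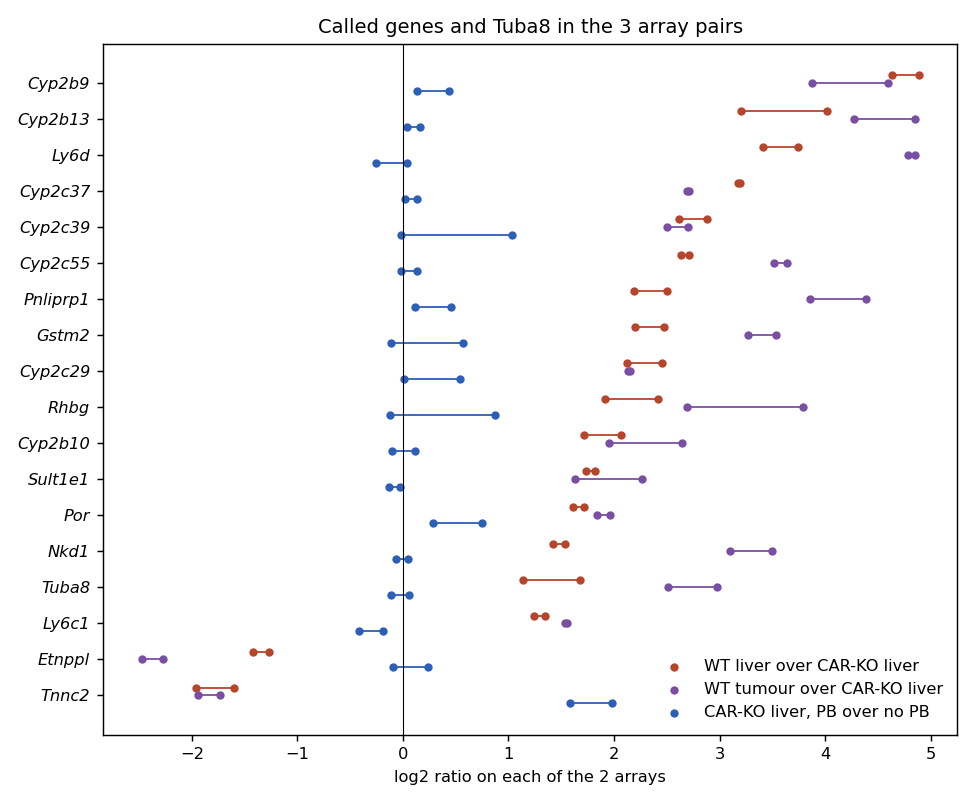
Log2 ratio on each of the 2 arrays, joined by a line, for the 17 called genes and Tuba8 in WT liver over CAR-KO liver (red), WT tumour over CAR-KO liver (purple) and CAR-KO liver with PB over without PB (blue). All 3 pairs contain RNA labelled as CAR-KO liver with DEN and PB. Red and purple lie on the same side of 0 for every gene shown. Blue lies above 1.5 on both arrays for Tnnc2 and nearer to 0 for the others. Among these Cyp2c39, Rhbg and Por reach 1.03, 0.87 and 0.75 on array 2 of that pair.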

How the data were processed

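RNA of 3 dye-swapped pairs was measured on 6 Agilent 2-colour arrays. Per the file headers, spot intensities of each channel and a local background were read by Agilent Feature Extraction 7.1.1 on 5 arrays and 7.5.1 on 1, while the submitters' processing notes name 7.5. The deposited log10 ratios of Cy5 over Cy3, with column medians of 0.0000 to 0.0208, were the software's own on every one of 22393 spots of each array (tolerance 0.0001) and entered no test. Here mean intensities were corrected with normexp (offset 50), loess-normalized within arrays with control and outlier spots at weight 0, averaged per probe and turned to WT over CAR-KO. All 6 arrays were fitted with limma 3.58.1 in R 4.3.3 with 3 contrasts plus 1 dye term for each probe. Testing required a signal well above background in either channel of 2 or more arrays, and calls had p-values under 0.05 after Benjamini-Hochberg adjustment over all tested probes. The script was tested on simulated data.

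Of 20868 probes, 9848 received 1 gene symbol through RefSeq accessions or names and 11020 none. Genes with several probes are given by the brightest. Named by rule were called genes, the 20 highest and 20 lowest same-sign ratios, up to 6 members of each list, Nr1i3 and Tuba8. Other list members with values, such as Cyp2b19, Cyp2c38, Gstt1, Axin2, Tcf7, Ctnnb1, Afp, H19, Gpc3, Rxra, Hnf4a, Eif2s3y, Kdm5d, Ckm and Actn3, were chosen after their values were seen. The comparison and all lists were chosen with earlier results of these data known. The number of arrays limits the precision. Protein sequences were not analysed here.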

Additional observations from a re-analysis of the deposited data

How the results depend on the processing

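The 19 higher and 2 lower calls were recomputed under 19 alternatives. Some of these repeat another fit by construction, as stated below. Counts were 12 and 1 with plain background subtraction, 24 and 4 with no subtraction, 17 and 4 with median centring, 15 and 1 without the dye effect and 17 and 1 without the filter. They were 69 and 18 with the 2 arrays alone (no dye effect), 76 and 18 with the 4 liver arrays, 75 and 20 with array weights and 54 and 13 with an intensity trend and robust prior. With the software's processed signals limma called 0 and 0 (smallest adjusted p 0.1854, 1126 probes at an unadjusted p under 0.05). Leaving out 1 array of this comparison or 1 array of the CAR-KO pair left fewer calls, as given above. The 2 fits that each omit 1 array of the CAR-KO pair are the same fit, because the other array is taken up by its own contrast. Omitting 1 tumour array in the same way repeats the fit on the 4 liver arrays, so it is no separate check. The 2-fold counts of 40 and 7 became 165 and 22 with processed signals, and 30 and 4 with no subtraction. Ratio sizes moved as well, though each called gene kept its sign in these settings. With processed signals and with no subtraction, Cyp2b9 was at 5.35 and 4.36 and Ly6d at 4.39 and 3.09. In the same order Pnliprp1 was at 3.21 and 1.89, Nkd1 at 2.09 and 1.15, and the brighter Cyp2c37 at 3.24 and 3.12. The 21 calls all stayed in the fits on the 2 arrays or the 4 liver arrays. They also stayed with array weights, the trend, the stricter filter, no subtraction and saturated spots left out. Aquantile scaling alters intensities but not ratios, so it gave the main fit again. The cause of the differences in these counts was not tested. Ccnd1 ranged from -0.0070 to 1.2447 when arrays were left out, and a lone array is then assumed to vary like the others. Each ratio sets the 2 RNAs of 1 array against each other, so the fit is paired within arrays. Animals could not be matched across arrays, because the labels carry no replicate numbers.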
